A study of Homo sapiens with 9 samples.

Results

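The genes described here are 10 transcription factors and regulators of the AP-1 and immediate early class: FOS, FOSB, FOSL1, FOSL2, JUN, JUNB, JUND, EGR1, IER2 and MYC. They were taken by symbol from the 60671 genes of the count files, and all 10 were among the 13390 genes abundant enough to be tested. The libraries came from N/TERT cells, an epidermal keratinocyte line immortalised with telomerase. The series concerns the scaling skin disease of sphingosine-1-phosphate lyase insufficiency. Control cells carried the wild-type genotype, KO cells a CRISPR knockout of SGPL1, the gene of that lyase, and OE cells overexpressed SGPL1, with 3 libraries in each group. No group was treated. The 3 libraries of each group are biological replicates in the series' design text. How many edited lines or clones stand behind them, and which promoter drove the overexpressed gene, are not stated in the labels or the design text.

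Proteins of the FOS and JUN families bind DNA as pairs through a basic leucine zipper, and the pair is called AP-1. FOS proteins pair with JUN proteins, while JUN proteins can also pair among themselves. FOS, EGR1 and several others are immediate early genes, switched on within minutes of a growth factor, serum or stress signal through SRF, ternary complex factors and CREB, without need for new protein. In the epidermis, AP-1 is known to act on genes of both proliferation and terminal differentiation, among them involucrin and transglutaminase 1.

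The list was chosen by gene family and function with earlier results of these libraries known, and the values that drew attention to it were the KO and control levels of FOS and EGR1. The levels and fold changes of the 10 genes are therefore given as a description, without p values. Levels between groups are in CPM, counts per 1000000 counts of a library scaled by the TMM method. Levels of different genes within a group are in TPM, counts per kilobase of exon scaled to sum to 1000000 in a library. Log2 fold changes come from a fit over all tested genes and are given ± SE. A gene was called changed at an adjusted p under 0.05.

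FOS and EGR1 had far larger KO to control ratios than the other 8 genes, and the bases before their transcription starts are shown here with those of JUNB, also called higher in KO cells, and of JUN, whose KO and control libraries overlapped. RefSeq promoter windows on GRCh38.p14 matched 8 of the 10 genes by symbol. Each window shown is the 250 bases before the annotated start, 5′ to 3′ on the gene's strand. Capitals mark matches on either strand to the core of the cAMP response element (CRE), TGACGT, to the CArG box, which SRF binds, and to the TATA box, TATAAA.
FOS, chr14:75278578-75278827, plus strand: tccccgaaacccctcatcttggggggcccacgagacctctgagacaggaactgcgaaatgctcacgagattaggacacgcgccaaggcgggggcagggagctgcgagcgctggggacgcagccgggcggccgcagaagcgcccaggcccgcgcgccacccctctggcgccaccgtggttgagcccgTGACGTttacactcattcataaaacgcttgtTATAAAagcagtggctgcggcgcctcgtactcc
EGR1, chr5:138465229-138465478, plus strand: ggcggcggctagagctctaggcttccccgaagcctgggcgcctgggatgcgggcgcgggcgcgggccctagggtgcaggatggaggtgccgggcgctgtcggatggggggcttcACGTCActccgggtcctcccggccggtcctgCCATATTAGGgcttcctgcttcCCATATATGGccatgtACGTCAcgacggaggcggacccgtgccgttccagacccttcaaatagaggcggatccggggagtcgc
JUNB, chr19:12791236-12791485, plus strand: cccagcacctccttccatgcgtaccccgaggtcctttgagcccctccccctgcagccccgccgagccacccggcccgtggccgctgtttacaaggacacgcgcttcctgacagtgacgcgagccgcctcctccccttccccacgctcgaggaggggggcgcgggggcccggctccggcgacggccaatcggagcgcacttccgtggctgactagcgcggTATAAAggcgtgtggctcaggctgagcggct
JUN, chr1:58784048-58784297, minus strand: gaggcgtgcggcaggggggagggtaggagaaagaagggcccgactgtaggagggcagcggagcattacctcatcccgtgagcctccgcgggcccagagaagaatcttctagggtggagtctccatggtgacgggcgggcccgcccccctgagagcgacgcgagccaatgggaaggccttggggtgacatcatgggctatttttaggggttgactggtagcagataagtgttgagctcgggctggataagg

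The CRE core lay in 5 of the 8 windows, those of FOS, FOSB, FOSL2, JUND and EGR1, and in 7.1% of all 35116 windows of this length. The FOSL2 window, 28392608 to 28392857 on the plus strand, lies inside the gene as counted, which starts at 28392448. Its core is thus not before that start. In FOS the core lay 64 to 59 bases before the start. In EGR1 it lay, as ACGTCA on the strand shown, at 136 to 131 and again at 67 to 62 bases. The full element TGACGTCA, which contains the core, was found in JUND alone, against 1.65% of all windows. The EGR1 window alone held CArG boxes, CCATATTAGG from 105 to 96 and CCATATATGG from 83 to 74 bases before the start, against 1.16% of all windows. Bases more than 250 before the start were not searched. A CArG box further upstream, in FOS or another gene, would not be seen. TATAAA was found in FOS, FOSB and JUNB, against 10.7% of all windows. The AP-1 site TGANTCA, where N is any base, matched 0 of the 8 windows (6.57% of all), and the EGR site GCGTGGGCG also matched 0 (0.72% of all). These matches describe the letters of the windows, and no binding was measured. The JUN window held 0 of these matches, and variants of the sites with other letters were not searched in any window.

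SGPL1 itself was checked first. Control cells had 83.9, 95.1 and 98.3 CPM of its mRNA, KO cells 58.8, 58.3 and 61.6 and OE cells 1132, 1104 and 929. The mRNA was lower but still present in KO cells, and every OE library stood far above both other groups. The enzyme itself was not measured in these files.

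Libraries held 6317564 to 13330479 counts, and 17280 to 18988 genes had a count in a library. Of 12 keratinocyte markers, 0 were without counts in any group, and their summed level ran from 33560 to 34270 CPM in control, 17990 to 19280 CPM in KO and 36890 to 38850 CPM in OE libraries. In KO cells 10 of these 12 fell and 2 (TP63 and PERP) rose, where 25.9% of all tested genes fell and 26% rose. The number that rose was 1 without control replicate 2 or KO replicate 2. With the trend with exon length and GC content removed 7 fell and 1 rose, beside 20.7% and 24.8% of all tested genes. COL3A1 and LUM of fibroblasts, TYR, DCT and SOX10 of melanocytes and PTPRC, CD3E, CD68, HBB and PECAM1 of blood and vessels had 0 counts in all 9 libraries. Markers of those lists with counts enough to test were COL1A1, which fell from 25.6 to 11.2 CPM in KO cells, MITF, which fell from 94.0 to 71.1 in KO and 62.5 in OE cells, PMEL, which passed in neither, and CD14, at 3.50 CPM in control, 6.62 in KO (risen) and 1.33 in OE cells (fallen). The CD14 rise was lost when corrected (log2 0.91 to 0.58) and without control replicate 2 (0.68) or 3 (0.88) or KO replicate 1 (0.80) or 3 (0.785), and its fall in OE cells (log2 -1.34) without control replicate 1 (-1.04) or OE replicate 1 (-1.135) or 2 (-1.26). Mitochondrially encoded mRNA took 1.59% to 1.79% of counts in control, 0.649% to 1.09% in KO and 1.08% to 1.25% in OE libraries. Short genes were also relatively richer in KO libraries: the slope of log2 level on log2 exon length lay from -0.15 to -0.13 for KO, from 0.05 to 0.09 for control and from 0.00 to 0.12 for OE libraries. The part of these shifts in the fold changes below was not tested gene by gene, but each log2 fold change of the 10 genes given here comes with its value after the trend with exon length and GC content was removed ("corrected") wherever the values differ by more than 0.1.

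Between KO and control cells, 3 of the 10 genes were called higher (FOS, EGR1 and JUNB), 1 lower (FOSL2) and 6 were not called. Among all tested genes 51.9% were called, 26% higher and 25.9% lower. The contrast was known when the list was made, so nothing is read from that count. Corrected, 4 were called higher, with IER2 added, and 1 lower, where 24.8% of all genes were higher and 20.7% lower. Between OE and control cells 2 were called higher (FOSL1 and EGR1), 1 lower (FOSL2) and 7 were not called, where 18.6% of all genes were called, 9.28% higher and 9.34% lower. Corrected, the count of the 10 was again 2 and 1, beside 10.6% and 10.5% of all genes. The KO and OE comparisons share the control libraries. Between KO and OE cells 4 were called higher (FOS, EGR1, JUNB and JUND) and 3 lower (FOSL1, FOSL2 and JUN), where 57.6% of all genes were called, 28.6% higher and 29% lower. Corrected, 5 were higher and 2 lower, beside 28.3% and 25.3% of all genes. KO libraries lay wholly above control libraries for 6 genes and wholly below for 1, where 30% of all genes lay above in this way and 29.4% below. OE libraries lay wholly above control for 3 and below for 1, against 17.2% and 17.6% of all genes. KO libraries lay above OE for 5 and below for 3, against 30.5% and 31.1%. The median log2 fold change of the 10 was 0.25 in KO and 0.03 in OE cells, beside medians of -0.005 and -0.007 over all genes.

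**Figure D1:**
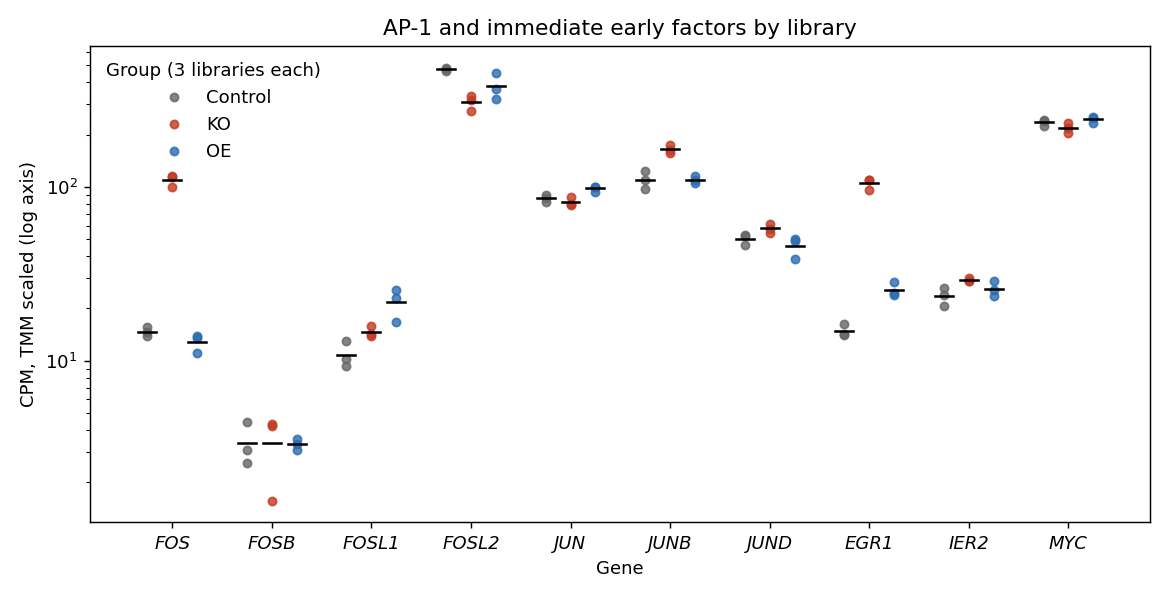
Level of each of the 10 genes in each library, in TMM-scaled CPM on a log axis, with 1 point per library and a bar at the mean of each group of 3. FOS and EGR1 lie near 100 CPM in KO libraries and below 30 CPM in all control and OE libraries, whereas the points of MYC and JUN lie close together in the 3 groups.

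FOS, the founding member of its family, had the largest KO to control ratio of the 10, with EGR1 next. It lies on chromosome 14 at 75278826 to 75282230 (GRCh38) and is annotated with 2 to 4 exons per transcript. Control libraries held 14.6, 15.7 and 13.8 CPM, KO libraries 100.1, 114.8 and 115.7 and OE libraries 13.5, 11.1 and 13.9. All KO libraries lay far above the rest, and control and OE libraries overlapped. Behind these levels stood 406 FOS reads in the control group, 2539 in the KO group and 423 in the OE group. KO cells exceeded control cells by 2.90 ± 0.12 on the log2 scale, a ratio of mean CPM of 7.49, and only 14 of the 13390 tested genes had a larger one. In OE cells it was -0.19 ± 0.13, which was not called. FOS ranked 6888 by level among 21691 genes with counts in control cells and 1432 among 20993 in KO cells.

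FOSL2, or FRA2, was the most abundant FOS family mRNA in every group and was lower in KO cells. It had 461.8, 486.3 and 476.5 CPM in control, 335.5, 316.1 and 271.9 CPM in KO and 452.5, 367.7 and 319.3 CPM in OE libraries. Each edited library was below each control library, and the OE libraries spanned most of the gap between the other groups. Its log2 fold change was -0.62 ± 0.10 in KO cells (corrected -0.34) and -0.32 ± 0.10 in OE cells. The OE call was lost when any one of the control replicates, OE replicate 2 or OE replicate 3 was left out, where the log2 value ran from -0.34 to -0.20. In KO against OE cells the log2 difference of -0.30 ± 0.10 was called, but corrected it was -0.02 and not called.

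FOSL1, or FRA1, encodes a FOS protein without the C-terminal activation domain of FOS. It was at 9.39, 10.2 and 12.9 CPM in control, 15.9, 13.9 and 14.2 in KO and 16.7, 23.1 and 25.5 in OE libraries. The 3 groups did not overlap, with control lowest and OE highest. In OE cells the log2 fold change was 1.01 ± 0.18, a ratio of means of 2.01, and 0.44 ± 0.19 in KO cells (corrected 0.24). Only the OE value was called, but the KO value was also called when control replicate 3 (log2 0.58), OE replicate 1 (0.44) or OE replicate 3 (0.44) was left out. KO cells were lower than OE cells by a called log2 difference of -0.57 ± 0.18 (corrected -0.74).

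FOSB was near the limit of measurement, with 14 to 42 reads in a library. Its levels were 3.06, 4.42 and 2.58 CPM in control, 4.34, 1.57 and 4.23 CPM in KO and 3.54, 3.33 and 3.06 CPM in OE libraries, and all groups overlapped. The SE of its log2 fold changes was 0.37 to 0.38, so a difference of the size seen for JUNB could not have been detected at this depth. The KO log2 fold change was -0.02, and corrected it was 0.25.

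Per length, the FOS family was made up differently in the 3 groups. FOSL2 held 85.8% ± 0.675 (SD, n = 3) of the family's summed TPM in control cells, 49.9% ± 3.79 in KO cells and 76.3% ± 5.70 in OE cells. FOS held 6.15, 6.23 and 5.55% in control, 35.9, 41.0 and 44.0% in KO and 5.51, 5.14 and 6.94% in OE libraries. FOSL1 held 7.43% ± 1.16 in control, 9.05% ± 0.626 in KO and 17.0% ± 5.04 in OE cells, and FOSB less than 2% in each library. In KO cells the family thus consisted mostly of FOSL2 and FOS, and in OE cells mostly of FOSL2 with FOSL1 next. The summed family level was 313.5 ± 14.3 TPM in control, 284.6 ± 16.1 in KO and 290.3 ± 38.0 in OE cells. TPM shift between groups with the richness of short genes, so these sums are not compared. On the log2 scale FOS moved by 3.53 more than FOSL2 between control and KO cells (corrected 3.23).

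**Figure D2:**
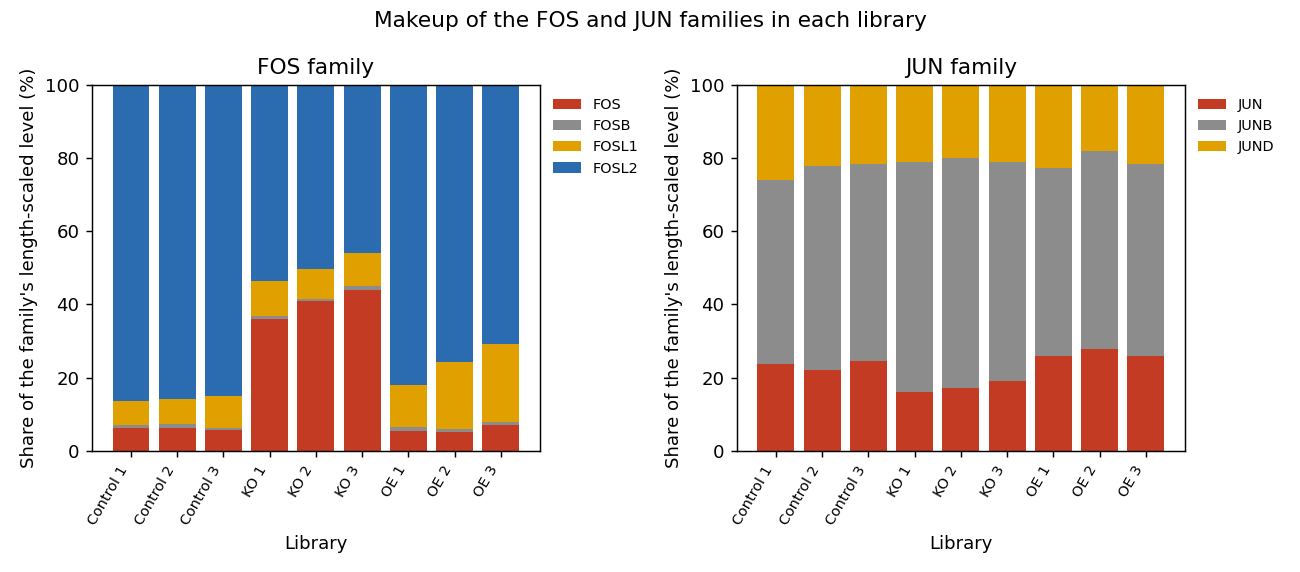
Makeup of the FOS family and of the JUN family in each of the 9 libraries, as the share in percent of the family's summed level per kilobase of exon held by each gene. FOS takes 35.9 to 44.0% of its family in the KO libraries and under 7% in all others, and JUNB holds the largest share of its family in every library.

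In the JUN family, JUNB was the member called higher in KO cells. It is a single-exon gene on chromosome 19 at 12791486 to 12793315 and encodes a JUN protein known as a weaker activator than JUN. Control libraries had 97.9, 123.1 and 110.1 CPM, KO libraries 175.5, 164 and 156.1 CPM and OE libraries 105, 109.6 and 115 CPM. The KO libraries lay above all others, and the OE libraries lay within the control range. On the log2 scale it differed from control by 0.58 ± 0.09 in KO cells and -0.01 ± 0.09 in OE cells. The KO value stayed called when the length trend alone was removed, but at 0.28. HOOK2, on the opposite strand, overlaps 14.2% of JUNB exon bases. Reads that touch both genes cannot be assigned to a strand with the counting used, and default counting drops them, so the JUNB level may be too low.

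JUN, the partner of FOS in the classical AP-1 pair, differed little. It was at 81.5, 86.9 and 89.4 CPM in control, 79.3, 79.6 and 88.1 CPM in KO and 94.1, 100.1 and 100.3 CPM in OE libraries. OE libraries lay above the rest, and KO and control libraries overlapped. Neither the KO (-0.07 ± 0.09) nor the OE (0.19 ± 0.09) log2 fold change was called, while the difference of KO from OE cells, -0.26 ± 0.09, was. That call was lost without KO replicate 1 (-0.23) or KO replicate 2 (-0.24).

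JUND, a JUN protein made steadily in many resting cells, had 52.8, 52.0 and 46.6 CPM in control, 61.5, 54.6 and 57.7 CPM in KO and 49.0, 38.6 and 50.0 CPM in OE libraries. The KO libraries were the highest, by a small margin. Its log2 fold change was 0.20 ± 0.11 in KO and -0.14 ± 0.11 in OE cells, neither called. The KO value changed sign to -0.09 when the length trend alone was removed. KO against OE was called at 0.33 ± 0.11, but not with that trend removed (0.04), without KO replicate 1 (0.285) or without OE replicate 2 (0.22).

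Per length, JUNB held 53.3% ± 2.60 (SD, n = 3) of the JUN family in control, 62.0% ± 1.75 in KO and 52.7% ± 1.38 in OE cells. JUN held 23.4% ± 1.26, 17.4% ± 1.52 and 26.5% ± 1.14 in the same order, and JUND held 23.3% ± 2.27, 20.6% ± 0.638 and 20.9% ± 2.44. JUNB led in all groups. JUN and JUND libraries overlapped in control cells, all JUND libraries lay above JUN in KO cells, and all JUN libraries lay above JUND in OE cells. JUN has 3257 exon bases, JUNB 1830 and JUND 1929, so the richness of short genes in KO libraries enters these shares and orders. Its part in them was not tested. On the log2 scale JUNB moved by 0.65 more than JUN between control and KO cells (corrected 0.59). The summed JUN family level was 458.2 ± 36.5 TPM in control, 481.8 ± 24.6 in KO and 476.7 ± 1.5 in OE cells, above the FOS family sum in each group.

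EGR1, a zinc finger factor that binds GC-rich sites and is induced through SRF, followed FOS in KO cells. It lies on chromosome 5 at 138465479 to 138469303 and has 2 exons. Its levels were 14.3, 14.1 and 16.2 CPM in control, 96.0, 110 and 110.4 CPM in KO and 24.5, 28.2 and 24.0 CPM in OE libraries. The groups did not overlap: control was lowest, OE intermediate and KO highest. Reads summed to 409 in control, 2431 in KO and 830 in OE cells. KO cells had a log2 fold change of 2.83 ± 0.12, a ratio of means of 7.10, and 16 of the 13390 genes had a larger one. In OE cells it was 0.78 ± 0.12, a ratio of 1.72, also called. Unlike FOS, EGR1 was thus called higher in both edited groups, and on the log2 scale FOS moved by 0.97 less than EGR1 from control to OE cells. The difference of these 2 fold changes was not tested.

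IER2, a small nuclear immediate early protein, had 24.0, 20.8 and 26.4 CPM in control, 28.9, 30.1 and 28.9 CPM in KO and 25.7, 23.6 and 28.7 CPM in OE libraries. KO libraries were above all others by a narrow margin. The log2 fold change was 0.31 ± 0.13 in KO cells, not called, and corrected it was 0.44 and called. It was also called without control replicate 3 (0.39). In OE cells it was 0.14 ± 0.13 and not called. Of the IER2 exon bases, 52.2% overlap genes on the opposite strand, so its counts are less certain than those of FOS or EGR1. Default counting drops reads that also touch another gene. The IER2 level, and its place in the order of levels below, may therefore be too low.

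MYC, which pairs with MAX and drives growth genes, was among the most abundant of the 10 and differed little. It had 225.7, 240.4 and 242.5 CPM in control, 232.6, 219.1 and 205.6 CPM in KO and 234.8, 252.3 and 250.4 CPM in OE libraries. Control libraries overlapped those of both edited groups. It differed on the log2 scale by -0.11 ± 0.08 in KO cells (corrected 0.05) and 0.06 ± 0.08 in OE cells, neither called.

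**Figure D3:**
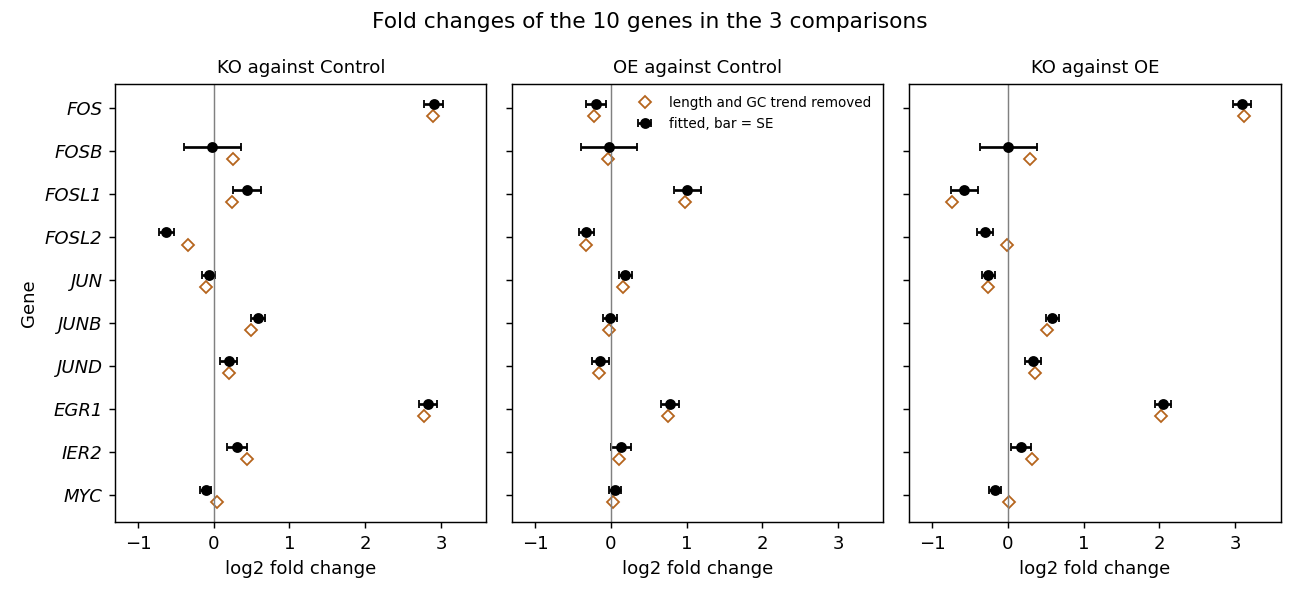
Log2 fold change of each of the 10 genes in KO against control, OE against control and KO against OE cells. Filled points are fitted values with bars of 1 SE, and open diamonds are values after the trend with exon length and GC content was removed. FOS and EGR1 lie near 3 in the first panel, and FOSL2 moves toward 0 in the third panel after the correction.

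The order of levels per length shows where FOS and EGR1 entered. In control cells FOSL2 (269 TPM), JUNB (244.9) and MYC (209.1) led, and neighbours in that order overlapped. JUN (107.1) and JUND (106.1) followed, below MYC in every library, and overlapped each other. Next, without overlap, came IER2 (31.2), FOSL1 (23.3), EGR1 (19.2) and FOS (18.7), with overlap between each pair of neighbours, and FOSB (2.45) was last. In KO cells JUNB (298.9 TPM) led without overlap with the next. MYC (158.3) overlapped FOSL2 (142.4), and FOS (114.4), EGR1 (111.2) and JUND (99.3) came next, FOS overlapping EGR1 and EGR1 overlapping JUND. FOS and EGR1 thus stood above JUN (83.6) there. In OE cells JUNB (251.2), MYC (224.5) and FOSL2 (222.8) led again, and FOSL1 (48.1) stood above IER2 (35.2) and EGR1 (34.2).

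The genes whose levels ran most like those of FOS were not immediate early genes. Over the 9 libraries and 10900 eligible genes, the highest Pearson correlations of log2 CPM with FOS were those of EEF1A1 (0.998), RAB4A (0.998), POT1 (0.996), TMEM230 (0.996) and LY6E (0.996). EGR1 correlated with FOS at 0.939 and IER2 at 0.679. The genes most like EGR1 were TMSB4XP8 (0.994), RSL1D1 (0.987), AZIN1 (0.986), MANBAL (0.985) and ACTG1 (0.984). TMSB4XP8 is a processed pseudogene of TMSB4X, so its reads are uncertain. These coefficients follow the levels of 3 groups, with 3 libraries behind each level, so they are given as a description. The ranges were unlike: EEF1A1, a translation elongation factor, averaged 9781 CPM in control and 25210 CPM in KO cells, a smaller ratio than that of FOS.

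Other immediate early genes, outside the 10, moved in both directions. Of 38 listed, 30 were abundant enough to test. In KO cells 13 rose, 7 fell and 10 did not pass (26% of all genes rose and 25.9% fell), with a median log2 fold change of 0.21. After correction 9 rose and 7 fell, where 24.8% of all genes rose and 20.7% fell. The calls lost were those of ATF3, ZFP36, CCN2 and PLK2. In OE cells 10 rose, 4 fell and 16 did not pass (9.28% of all genes rose and 9.34% fell), with a median of 0.16.

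The largest movers of that list by p in KO cells were PTGS2, BTG1, RHOB and BTG2. PTGS2, the inducible cyclooxygenase, rose from 74.1 ± 5.45 CPM in control to 151.4 ± 22.1 in KO cells (SD, n = 3, log2 1.026 ± 0.10, edgeR adjusted p = 1.04e-08). BTG1, an antiproliferative protein, rose to 188.8 ± 15.5 CPM in KO cells (log2 0.90 ± 0.09, edgeR adjusted p = 1.39e-08). RHOB, a small GTPase, rose from 44.4 to 84.6 CPM (log2 0.93 ± 0.10, edgeR adjusted p = 2.91e-08). BTG2, a relative of BTG1 and a target of p53, rose from 219.1 to 363.3 CPM (log2 0.73 ± 0.09, edgeR adjusted p = 5.66e-07). All 4 ratios were below those of FOS and EGR1.

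OE cells shared some of these changes and not others. PTGS2 rose in OE cells too, to 148.1 ± 6.87 CPM (SD, n = 3, log2 1.00 ± 0.10, edgeR adjusted p = 1.19e-07). PHLDA1, a pleckstrin homology protein induced by mitogens, rose from 36.7 to 78.1 CPM in OE (log2 1.09 ± 0.10, edgeR adjusted p = 7.33e-08) and to 53.3 CPM in KO cells. IER3, PTGS2, PLK2 and PHLDA1 rose in both edited groups, but the KO call of PLK2 was lost after correction (log2 0.32 to 0.13). KLF10, BTG1, BTG2 and SGK1 rose in KO and fell in OE cells, and KLF4 and ZFP36L2 fell in KO and rose in OE cells. DUSP1, the ERK and p38 phosphatase often induced with FOS, passed in neither (log2 0.17 ± 0.09 in KO). EGR2, EGR4, ARC and NPAS4 had 0 counts in all libraries, where 3 counts in a library correspond to 0.225 to 0.475 CPM, and EGR3, NR4A1, NR4A3 and KLF2 had too few counts to test.

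**Figure D4:**
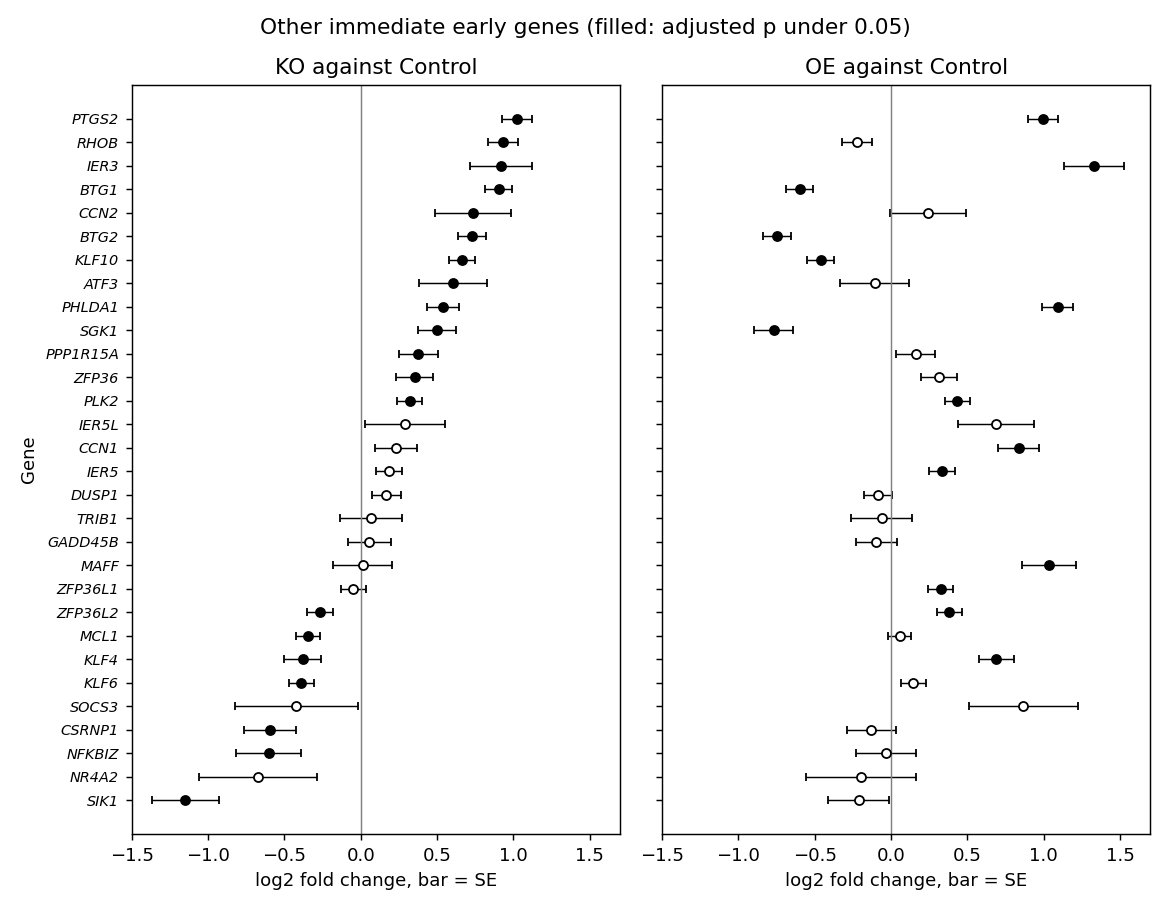
Log2 fold change of the 30 tested immediate early genes outside the 10, in KO against control and OE against control cells, ordered by the KO value, with bars of 1 SE. Filled points have an adjusted p under 0.05: 13 rose and 7 fell in KO cells, and 10 rose and 4 fell in OE cells.

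Other basic leucine zipper proteins, partners or relatives of the FOS and JUN proteins, were mostly low or moved modestly. ATF3 and MAFF were also counted among the other immediate early genes, and CREB1 is counted again among the upstream factors below. Of 17 listed, 11 were tested, of which 2 rose (ATF3 and CREB1) and 3 fell (ATF7, MAFG and MAFK) in KO cells (26% of all tested genes rose and 25.9% fell), and 2 rose (MAFF and MAFK) and 2 fell in OE cells (9.28% of all tested genes rose and 9.34% fell). After correction the KO calls of ATF3 and MAFG (log2 -0.25) were lost, JDP2 was called higher and ATF2 lower. The number that rose in KO cells was 0 without control replicate 2 or KO replicate 2 and 1 without control replicate 3. The number that fell in OE cells was 1 without any one control replicate or OE replicate 1, and 0 without OE replicate 3. ATF3, itself an immediate early stress gene, rose from 7.56 to 11.5 CPM in KO cells (log2 0.60 ± 0.22, edgeR adjusted p = 0.028). That call was lost after correction (log2 0.52) and without any one of control replicates 2 and 3 or KO replicates 2 and 3 (0.525 to 0.61). MAFK, a small MAF protein without an activation domain, fell from 22.3 to 13.9 CPM in KO cells (log2 -0.70 ± 0.14, edgeR adjusted p = 0.000234; corrected -0.355, adjusted p = 0.0461) and rose to 33.4 CPM in OE cells (log2 0.58 ± 0.13, edgeR adjusted p = 0.00219). MAFF, another small MAF, rose from 10.2 to 20.8 CPM in OE cells (log2 1.04 ± 0.18, edgeR adjusted p = 0.00016). ATF7 fell from 17.3 to 9.64 CPM in KO cells (log2 -0.83 ± 0.17, edgeR adjusted p = 0.00024). BATF3 had 0 counts in every library.

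The kinases and factors that act upstream of immediate early genes were all measured, 29 of 29. In KO cells 6 rose (ELK1, CREB1, MAP2K4, MAPK8, MAP2K6 and MAPK14), 7 fell and 16 did not pass (26% of all tested genes rose and 25.9% fell). After correction 8 rose and 5 fell, where 24.8% of all tested genes rose and 20.7% fell. MAP2K4 (log2 0.30 to 0.155), MRTFA, MAPK3 and RPS6KA1 were no longer called, BRAF, MAP2K2 and RPS6KA5 were called higher and MAP2K1 lower. Without KO replicate 2, the number that rose was 2. In OE cells 2 rose and 1 fell (9.28% of all tested genes rose and 9.34% fell), 4 rose without OE replicate 3, and 2 fell without control replicate 1, OE replicate 1 or OE replicate 3. After correction 4 rose and 3 fell in OE cells, beside 10.6% and 10.5% of all tested genes. ELK3 and MAPK9 were then added as higher, and MRTFA and MAP2K2 as lower. RPS6KA4, or MSK2, which phosphorylates CREB and histone H3, fell from 124.2 to 75.7 CPM in KO cells (log2 -0.72 ± 0.09, edgeR adjusted p = 3.21e-07). MRTFA, a coactivator of SRF, fell from 145.7 to 91.6 CPM (log2 -0.67 ± 0.10, edgeR adjusted p = 8.49e-06), a call lost after correction (log2 -0.20). MRTFB, its paralogue, fell from 39.1 to 21.3 CPM (log2 -0.87 ± 0.14, edgeR adjusted p = 1.5e-05; corrected -0.44). RPS6KA3, or RSK2, a kinase activated by ERK, fell from 59.9 to 37.7 CPM (log2 -0.66 ± 0.12, edgeR adjusted p = 5.48e-05). In OE cells RPS6KA2 rose from 18.0 to 33.5 CPM (log2 0.90 ± 0.14, edgeR adjusted p = 6.13e-05), and MAP2K6, which activates p38, fell from 9.89 to 3.37 CPM (log2 -1.59 ± 0.27, edgeR adjusted p = 0.000133).

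Genes known as AP-1 targets moved in both directions as well. Of 25 listed, 14 were tested: 4 rose (PLAU, TIMP1, GSTP1 and HBEGF) and 4 fell, among them TGM1, CCND1 and MT2A, in KO cells (26% of all tested genes rose and 25.9% fell). After correction HBEGF (log2 0.67 to 0.42) and CCND1 (log2 -0.31 to -0.15) were no longer called, SPRR1B was called lower (log2 -0.80) and CD44 higher (log2 0.40). In OE cells 5 rose, among them PLAUR, TGM1, SPRR1B and MT2A, and 1 fell (IVL) (9.28% of all tested genes rose and 9.34% fell), or 2 fell without control replicate 3, KO replicate 1, OE replicate 1 or OE replicate 2. TGM1, transglutaminase 1 of the cornified envelope, fell from 85.6 ± 5.21 to 25.8 ± 2.92 CPM in KO cells (SD, n = 3, log2 -1.72 ± 0.10, edgeR adjusted p = 1.11e-11). Its OE call (log2 0.32 ± 0.09) was lost without any one of control replicates 2 and 3 or OE replicates 1 and 2 (0.27 to 0.34). MT2A, a metallothionein, fell from 243 to 146.2 CPM in KO cells (log2 -0.74 ± 0.11, edgeR adjusted p = 4.19e-06; corrected -1.22) and rose to 361.4 CPM in OE cells (log2 0.57 ± 0.10, edgeR adjusted p = 0.00032). GSTP1, a glutathione transferase, rose from 1394 to 1996 CPM in KO cells (log2 0.52 ± 0.08, edgeR adjusted p = 5.06e-06), and TIMP1, an inhibitor of matrix proteases, from 62.4 to 97.3 CPM (log2 0.64 ± 0.10, edgeR adjusted p = 8.03e-06; corrected 0.29). SPRR1B, a cornified envelope precursor, rose from 14.5 to 27.3 CPM in OE cells (log2 0.92 ± 0.17, edgeR adjusted p = 0.0003). MMP1, MMP3 and LORICRIN had 0 counts in all libraries. Keratinocyte markers fell with TGM1 in KO cells, as given above, and their part in these counts was not tested.

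Of 9 corepressors and targets of EGR1, 7 were tested, and 1 rose and 0 fell in KO cells (26% of all tested genes rose and 25.9% fell). Without control replicate 1 the number that fell was 1, and after correction it was 2, NAB1 and F3 (20.7% of all tested genes). At an unadjusted p under 0.05 in edgeR 1 was lower, NAB1, and DESeq2 and limma-voom called 0 lower. The gene that rose was TGFB1, a growth inhibitor of keratinocytes, from 136.5 to 206.1 CPM (log2 0.60 ± 0.08, edgeR adjusted p = 1.94e-06). In OE cells 3 rose, NAB1, F3 and PDGFA, or 1 without any one control replicate, OE replicate 1 or OE replicate 2, and PDGFA was not called after correction (9.28% of all tested genes rose). F3, or tissue factor, rose from 189.2 to 397.6 CPM in OE cells (log2 1.07 ± 0.11, edgeR adjusted p = 2.37e-07) and was at 180.4 CPM in KO cells. NAB1, an EGR corepressor, rose from 60.6 to 73.4 CPM in OE cells (log2 0.28 ± 0.09, edgeR adjusted p = 0.0369), a call lost without any one of the 3 control replicates, OE replicate 1 or OE replicate 2 (log2 0.23 to 0.305).

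The partners and relatives of MYC had calls in both directions in KO cells. Of 13 listed, 11 were tested, and in KO cells 3 rose (MLX, MYCL and MYCBP) and 4 fell (MXD1, MNT, MLXIP and MGA) (26% of all tested genes rose and 25.9% fell). After correction MYCBP (log2 0.40 to 0.003) and MNT (log2 -0.56 to -0.008) were no longer called, while MAX, MXD3 and MXD4 were called higher. Thus 5 rose and 3 fell, where 24.8% of all tested genes rose and 20.7% fell. In OE cells 0 rose and 3 fell (MXD4, MLXIP and MYCL) (9.28% of all tested genes rose and 9.34% fell), or 1 fell without control replicate 2, control replicate 3 or OE replicate 3. At an unadjusted p under 0.05 in edgeR 1 was higher there, MXD3, and DESeq2 and limma-voom called 0 higher. MLXIP, which pairs with MLX and senses glucose metabolites, fell from 158 to 76.8 CPM in KO cells (log2 -1.04 ± 0.09, edgeR adjusted p = 1.78e-09), and corrected its log2 value was -0.33. MLX rose from 38.6 to 63.3 CPM (log2 0.71 ± 0.11, edgeR adjusted p = 6.29e-06). MXD4, which pairs with MAX and opposes MYC, fell from 78.1 to 42.4 CPM in OE cells (log2 -0.88 ± 0.10, edgeR adjusted p = 5.42e-07). MYCN had 0 counts in every library.

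Of 20 known MYC targets, 19 were tested. In KO cells 6 rose, 4 fell and 9 did not pass (26% of all tested genes rose and 25.9% fell). After correction 4 rose and 7 fell, where 24.8% of all tested genes rose and 20.7% fell. ODC1, DKC1 and WDR43 were no longer called, POLR1B was called higher and FBL, RRP9 and RRS1 lower. In OE cells 12 rose and 1 fell (9.28% of all tested genes rose and 9.34% fell), and without control replicate 2 or OE replicate 3 the number that rose was 6 or 7. CAD, of pyrimidine synthesis, fell from 89.3 to 38.6 CPM in KO cells (log2 -1.21 ± 0.10, edgeR adjusted p = 6.25e-10; corrected -0.755). NCL, or nucleolin, fell from 872.5 to 526.1 CPM (log2 -0.73 ± 0.08, edgeR adjusted p = 5.62e-08), whereas NPM1, another nucleolar protein, rose from 1216 to 1867 CPM (log2 0.62 ± 0.09, edgeR adjusted p = 3.69e-06; corrected 0.30). CCND2, or cyclin D2, fell in both edited groups, from 130.6 CPM to 87.2 CPM in KO and 81.1 CPM in OE cells (log2 -0.58 ± 0.10 and -0.68 ± 0.10, edgeR adjusted p = 2.62e-05 and 1.63e-05). ODC1, the first enzyme of polyamine synthesis, rose from 45.5 to 75.1 CPM in OE cells (log2 0.73 ± 0.12, edgeR adjusted p = 0.000104).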

How the data were processed

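Poly-A RNA of 9 libraries, 3 each of control, KO and OE cells grouped by the titles and genotype in the labels, was sequenced as paired reads of 150 bases, per the labels. The deposited counts were raw reads per gene, counted by the authors with featureCounts (1.5.2 per the file headers, 0.1.0 per the submitters' processing notes) against Ensembl 101 on GRCh38. The notes also name FastQC, HISAT2 1.03 and DESeq2. The counting command sets no strand or pair option, so overlapping genes cannot be told apart and mates may be counted separately.

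Counts were analysed in edgeR 4.0.16 (R 4.3.3) by a quasi-likelihood fit of all 9 libraries on group, with TMM scaling and filterByExpr (minimum count 10, 13390 genes). Benjamini-Hochberg adjustment ran over all tested genes at 0.05, and SE is the log2 fold change over the root of its F. The correction entered a loess surface (span 0.3) over exon length and GC content as an offset in each library. GC came from GENCODE for 99.6% of tested genes. Log2 CPM for correlations had a prior count of 2.

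The 10 genes, the gene lists and the rules were chosen with earlier results of these data known. Genes named from a list were the up to 4 tested genes with the smallest p in KO and up to 2 in OE cells among those past the threshold, the 5 genes most like FOS and the 5 most like EGR1 (mean of at least 5 CPM in the highest group), and list members without counts. The search for genes most like FOS or EGR1 left out the 10 genes and genes without a symbol. DUSP1, PMEL, genes whose call changed on correction, KO values of genes named for OE cells and the members named in counts of calls were chosen after their values were seen. Some list members are not reported here by name. Alternatives were DESeq2's size factors and Wald test (1.42.0), limma-voom (3.58.1), other filters, thresholds and groups in the fit, the replicate number as a block, trend removal and each library left out.

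On counts simulated for KO against control over 13079 genes, 64.2% of changes of 1.5-fold, 95.5% of 2-fold and 96.9% of 4-fold were recovered. Only 67, 66 and 65 genes carried these changes, all genes had the same spread, and no length trend was put in. In the libraries 51.9% of tested genes were called and a length trend was present, so these recoveries may not hold there. No replicate pair agreed within sampling noise (chi-square over degrees of freedom, 2.74 to 11.7). The highest values, 11.65 and 10.93, were those of OE replicate 3 with OE replicates 1 and 2. All other pairs lay from 2.74 to 6.45. Reads are not independent molecules, and depths cover counting error only.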

Additional observations from a re-analysis of the deposited data

How the results depend on the processing

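For each comparison, the fold changes of the 10 genes were recomputed under 20 alternatives, and of 200 values each, 192 in KO against control, 194 in OE against control and 184 in KO against OE kept their call or lack of call, with 0 called values reversed. Values that were not called could change sign: in KO against control cells JUND ran from -0.09 to 0.24, MYC from -0.15 to 0.05 and FOSB from -0.28 to 0.35. FOS ran from 2.77 to 2.97 and EGR1 from 2.69 to 2.89 in KO against control cells. At an adjusted p under 0.01, 740 genes were higher and 691 lower in OE against control cells, and 0 of the 10 were lower there. In KO against OE cells 1 of the 10 was lower at that threshold. The share of all genes called there is not given here, so nothing is read from that count. The cause of these changes is the stricter threshold. With each library left out in turn, KO against control had 3001 to 3640 genes higher and 3055 to 3561 lower, OE against control 868 to 1325 higher and 843 to 1260 lower, and KO against OE 3405 to 3802 higher and 3488 to 3916 lower. Of the 10, 3 to 5 were then higher and 1 lower in KO against control, 2 higher and 0 to 1 lower in OE against control, and 3 to 4 higher and 2 to 3 lower in KO against OE. The replicate number as a block called 5 of the 10 higher in KO against control cells, adding FOSL1 (log2 0.46) and IER2 (0.32). The share of all genes called in that fit is not given here, so nothing is read from the count. Same-numbered libraries correlated at only -0.08 to 0.07 after group means were removed, so the numbers were not taken as pairs. In KO against OE cells MT-ND3 reversed to -0.38 with the length trend removed, -0.33 with length and GC and -0.33 with the block as well, TMSB4XP8 to -0.01, -0.21 and -0.22, and MRTFA to 0.032 with length and GC and 0.029 with the block as well; the cause was not tested. By raw counts rather than per length, FOS held 2.92%, 25.4% and 3.12% of its family in control, KO and OE cells. With FOSB at 14 to 42 reads a library, depth limits what could be seen there.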

Other observations

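TERT, the telomerase gene used to immortalise this line and a known MYC target, had 6 counts in the control group and 0 in both edited groups. Its control SD, 0.365 CPM, was larger than its control mean, 0.211 CPM, so these counts were spread unevenly over the control libraries. They were too few to test, and no loss of TERT in edited cells is read from them. MMP13, a collagenase under AP-1 control, had 14 counts in the control, 44 in the KO and 0 in the OE group, too few to test.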
